A study of Rattus norvegicus with 24 samples.

Results

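The kidney epithelial transcription factors described here were Hnf4a, Pax2, Pax8, Lhx1, Emx1, Gata3, Tfap2b and Tfcp2l1, chosen by name for their roles in tubule identity. The rat gene identifiers of 7 of the 8 were found among the 17334 identifiers of the expression tables, and all 7 passed the filter on low counts that left 12778 genes. Emx1 was not analysed here. The RNA came from whole left kidneys, 1 per animal, of male PKD/Mhm (Cy/+) rats killed at 8 months, 24 in all and 6 to each of 4 groups. All 24 carried 1 copy of the Cy allele, a missense mutation of Anks6 that gives tubular cysts, and carriers had been recognised by palpating the abdomen, so no kidney without cysts is in the comparison. The control group (Ctrl) was untreated. The other groups were treated monthly from the age of 8 weeks with human skin-derived ABCB5+ stromal cells given intraperitoneally (i.p. ABCB5+) or intravenously (i.v. ABCB5+), or with CoCM, the medium of such cells cultured together with macrophages derived from the THP-1 line and stimulated with IFN-γ and LPS. The sources name different routes for CoCM, and no vehicle-treated group was analysed here, so injection itself and the agent cannot be told apart.

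Transcription factors of this kind hold each stretch of the nephron to its own programme. Pax2 and Pax8 are paired-box factors that set up the whole nephron lineage and stay on in parts of the adult tubule and collecting duct. Lhx1 is a LIM-homeodomain factor needed to pattern the early nephron. Hnf4a, a nuclear receptor, drives the transport and gluconeogenic genes of the mature proximal tubule. Tfap2b, an AP-2 factor, is needed for the distal convoluted tubule. Gata3, a zinc-finger factor, is needed for the nephric duct and persists in the collecting duct, and it is also known from T helper cells, urothelium and mesangial cells. Tfcp2l1, a CP2-type factor, is needed for the intercalated cells of the collecting duct.

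The bases that precede the start sites are shown for the members whose windows held a searched motif, namely Hnf4a, Lhx1 and Gata3. They come from RefSeq on GRCr8, on the strand of the gene, and each window is the 250 bases before the start. Hnf4a is known to be transcribed from an upstream promoter and from a downstream promoter that adult liver and kidney use. The upstream Hnf4a window is chr3:172605970-172606219 on the plus strand, with a GATA site (AGATAA) in capitals. The downstream window is chr3:172641586-172641835 on the plus strand, with a pair of homeodomain-type motifs in capitals, each reading GTTAAT on the other strand. The Lhx1 window is chr10:69901077-69901326 on the minus strand and the Gata3 window chr17:73553298-73553547 on the plus strand, with AP-2 sites (GCCNNNGGC) in capitals.
Hnf4a upstream: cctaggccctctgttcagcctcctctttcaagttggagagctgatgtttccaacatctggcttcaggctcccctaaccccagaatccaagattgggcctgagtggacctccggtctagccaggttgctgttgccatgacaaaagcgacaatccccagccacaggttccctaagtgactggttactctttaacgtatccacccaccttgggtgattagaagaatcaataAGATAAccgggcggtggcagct
Hnf4a downstream: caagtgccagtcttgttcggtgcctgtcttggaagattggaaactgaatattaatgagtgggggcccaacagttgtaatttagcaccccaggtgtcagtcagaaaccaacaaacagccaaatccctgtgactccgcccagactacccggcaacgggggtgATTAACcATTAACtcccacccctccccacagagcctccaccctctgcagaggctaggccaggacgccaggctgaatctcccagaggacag
Lhx1: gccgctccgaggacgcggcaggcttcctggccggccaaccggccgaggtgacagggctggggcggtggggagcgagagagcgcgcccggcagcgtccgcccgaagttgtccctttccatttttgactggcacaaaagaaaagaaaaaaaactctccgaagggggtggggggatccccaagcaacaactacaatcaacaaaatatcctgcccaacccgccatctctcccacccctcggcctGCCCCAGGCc
Gata3: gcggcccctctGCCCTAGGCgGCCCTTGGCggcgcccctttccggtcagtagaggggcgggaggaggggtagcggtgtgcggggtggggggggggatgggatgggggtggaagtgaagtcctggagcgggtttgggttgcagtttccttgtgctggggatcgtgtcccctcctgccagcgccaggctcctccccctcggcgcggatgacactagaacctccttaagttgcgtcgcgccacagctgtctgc

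The GTTAAT motifs of the downstream Hnf4a window lie 90 to 85 and 83 to 78 bases before the start, separated by a single base, and the GATA site of the upstream window lies 22 to 17 bases before it. The AP-2 match of Lhx1 lies 10 to 2 bases before the start. Those of Gata3 lie 239 to 231 and 229 to 221 bases before it. Both strands were searched for 6 motifs. GTTAAT was found in 6.45% of all 33469 windows of the same length, AGATAA in 10.3% and GCCNNNGGC in 12.6%. The remaining motifs were an HNF4 site (CAAAGTCCA, in 0.338%), another homeodomain site (TAATTA, in 4.86%) and a CP2 site (a pair of CCAG set 6 bases apart, in 2.76%), and none of these 3 was in a member's window. A GTTAAT and a TAATTA match can share bases. The windows of Pax2, Pax8 and Tfcp2l1 held none of the 6 motifs. GC content was 71.2% for Pax2, 68.4% for Gata3, 64.8% for Tfcp2l1, 63.2% for Lhx1 and 60.8% for Pax8, against a median of 51.2% over all windows, whereas the Hnf4a windows had 52.4% and 54.8%. The tables hold 1 value per gene, so the use of the Hnf4a promoters could not be told apart.

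Total estimated counts were 9304630 to 14125457 per animal. The libraries of 4 animals stood apart from the other 20, namely animal 39 of the CoCM group, animal 38 of the i.p. group and animals 36 and 37 of the i.v. group. On the first principal component, which took 56.3% of the variance, they scored 80.8 to 97.4 and the others -53 to 11.5. Summed proximal tubule markers (13 genes, Miox among them) reached 12300 to 22300 TPM (a level scaled for transcript length and to the same total in each library) in these 4 and 2590 to 10800 TPM in the others. Summed injured tubule markers (9 genes, Spp1 and Cd24 among them) were 1020 to 1180 TPM against 7780 to 15400 TPM, and summed macrophage markers (5 genes) 34.9 to 95.8 TPM against 218 to 533 TPM. T cell markers (10 genes) summed to 22.3 to 39.9 TPM against 146 to 357 TPM, and B cell markers (4 of 5 listed genes) to 0.185 to 0.898 TPM against 9.51 to 71.7 TPM. The libraries of all 24 animals held the markers of each nephron segment, which fits the labelled tissue. Each member is therefore given with and without animals 36 to 39, and the part of the markers in a result was not tested unless a value is given.

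Per transcript length, Pax8, Tfcp2l1 and Hnf4a had the highest levels of the members and Lhx1 the lowest. In the Ctrl group Pax8 was at 125 ± 16.2 TPM (mean ± SD, n = 6), Tfcp2l1 at 116 ± 50 TPM and Hnf4a at 110 ± 64.8 TPM. Gata3 followed with 71.5 ± 25 TPM, Pax2 with 32.1 ± 9.75 TPM, Tfap2b with 25.6 ± 7.39 TPM and Lhx1 with 15.9 ± 9.69 TPM. The 3 highest were not separated from each other beyond their spread, nor was Hnf4a from Gata3, since Pax8 exceeded Tfcp2l1 in 4 of 6 Ctrl animals, Tfcp2l1 exceeded Hnf4a in 3 of 6 and Hnf4a exceeded Gata3 in 3 of 6 (exact two-sided sign-flip tests, p = 0.188, 0.688 and 0.344). Gata3 exceeded Pax2, Pax2 exceeded Tfap2b and Tfap2b exceeded Lhx1 in 6 of 6 Ctrl animals each (exact p = 0.0312, the smallest that 6 animals allow, adjusted p = 0.0625 over the 6 neighbours).

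Some neighbours changed places in the treated groups. With all 6 i.v. animals Hnf4a had the highest mean, at 178 ± 91.1 TPM, but it exceeded Pax8 in 3 of 6 (exact p = 0.438). Without animals 36 and 37 it stood at 122 ± 37.9 TPM, below Pax8 at 138 ± 17.8 TPM and Tfcp2l1 at 123 ± 32.1 TPM (SD, n = 4). Tfap2b lay above Pax2 in the CoCM and i.p. groups, in 5 of 6 and 3 of 6 animals (exact p = 0.156 and 0.5), so that the places of these neighbours were not separated there. Averaged over all 24 animals Hnf4a stood at 131 TPM and Lhx1 at 19.6 TPM. These were above 93% and 62.7% of all 17334 genes, including those that the count filter removed.

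**Figure D1:**
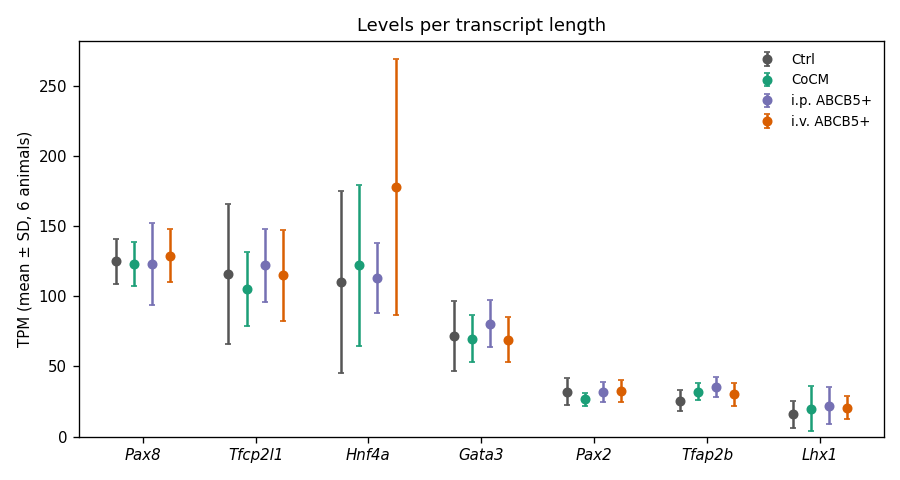
Level of each member in TPM on a linear axis, with a point for the mean of the 6 animals of each group and a bar for the SD. Pax8, Tfcp2l1 and Hnf4a share the upper level, with group means from 105 to 178 TPM, and Lhx1 is lowest in every group, with means from 15.9 to 22.1 TPM.

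None of the 7 members passed the test between groups, with edgeR, DESeq2 or limma. No member reached an adjusted p below 0.05 in any of the 4 comparisons (edgeR quasi-likelihood test, Benjamini-Hochberg over 12778 genes), and the smallest adjusted p of a member was 0.389. Over all genes 0.00783% were called for CoCM against Ctrl, which is 1 gene, and 0% for i.p. against Ctrl, i.v. against Ctrl and i.p. against i.v. At an unadjusted p below 0.05 the share of all genes was 11.9%, 1.77%, 5.78% and 2.14% in that order, and the share that also were higher in the first group 5.96%, 1.26%, 4.44% and 0.689%. Of the members, Tfap2b alone passed that looser threshold, for CoCM and for i.p. ABCB5+ against Ctrl. The groups of every member overlapped in every comparison, where 1.38% of all genes did not overlap for CoCM, 0.047% for i.p. and 0.11% for i.v. against Ctrl and 0.0626% for i.p. against i.v. A test for any difference among the 4 groups gave an unadjusted p of 0.0498 for Tfap2b (edgeR, adjusted p = 0.817) and of 0.19 or more for the others, beside 4.71% of all genes below 0.05 and 0% after adjustment. The log2 fold change was above 0 for 6 of 7 members for CoCM (51.4% of all genes), 7 of 7 for i.p. (51%) and 7 of 7 for i.v. (52.6%) against Ctrl, and for 4 of 7 for i.p. against i.v. (49.8%). Without animals 36 to 39 these counts were 2, 6, 7 and 4. The 3 comparisons with Ctrl share the same 6 control animals. In whole kidney RNA, fewer cells of a type and less RNA per cell cannot be told apart.

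**Figure D2:**
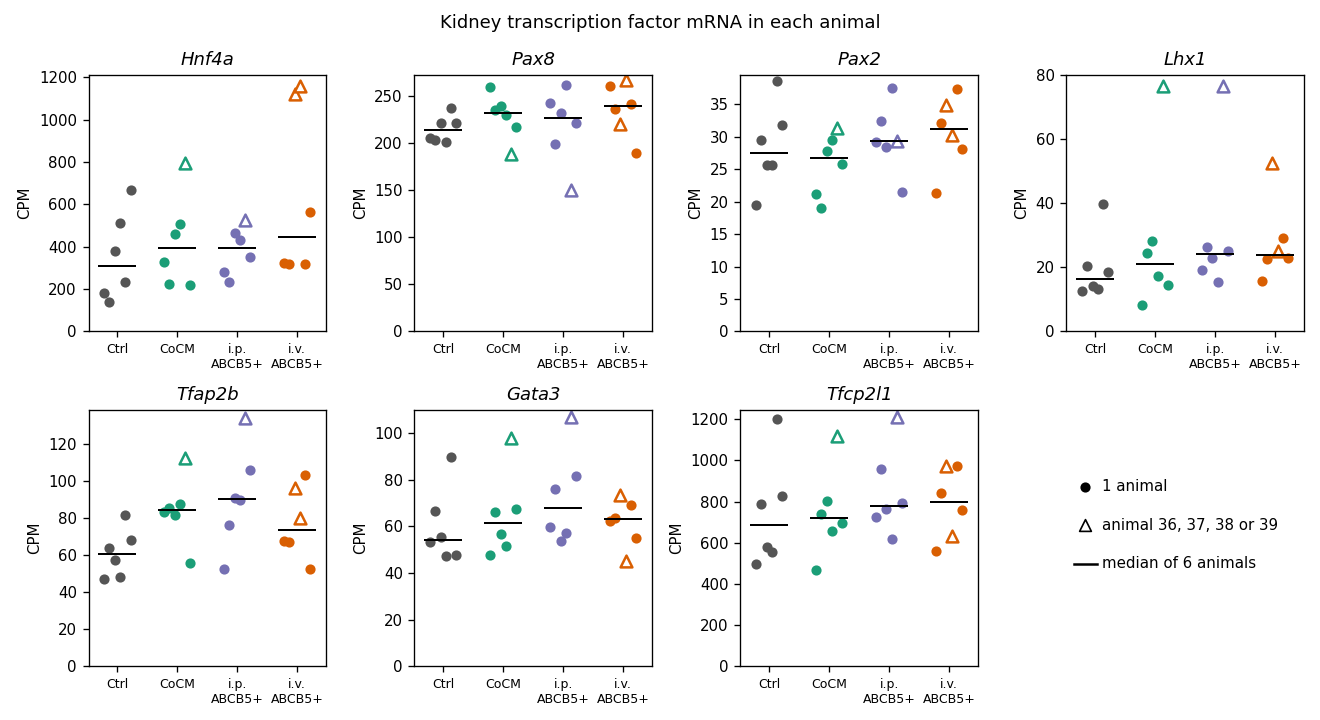
Level of each member in CPM (linear axes from 0) in every animal, by group, with a line at the median of 6 animals and open triangles for animals 36 to 39. Hnf4a and Lhx1 spread most, with an animal from 36 to 39 at the top of each treated group, Pax8 spreads least, and the groups of every member overlap.

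Levels are given in CPM, the count of a gene per library total after TMM scaling. Tfap2b, the distal convoluted tubule factor (identifier 301285), had the lowest p-values of the members. In Ctrl animals it ran from 47.2 to 81.7 CPM with a median of 60.5 CPM. In CoCM animals it ran from 55.4 to 112 CPM with a median of 84.2 CPM, and in i.p. animals from 52.5 to 134 CPM with a median of 90.1 CPM. The i.v. animals ran from 52.2 to 103 CPM with a median of 73.7 CPM. In the CoCM group 4 animals lay between 81.7 and 87.3 CPM, with animals 40 (55.4 CPM) and 39 (112 CPM) as its extremes, and 5 of its 6 animals were level with or above the highest Ctrl animal. In the i.p. group 4 of 6 animals lay above the Ctrl range and in the i.v. group 2 of 6. In each treated group 1 animal stayed below the Ctrl mean of 61 CPM.

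Against Ctrl, the log2 fold change of Tfap2b was 0.46 ± 0.201 (SE) for CoCM (edgeR, unadjusted p = 0.031, adjusted p = 0.389). It was 0.58 ± 0.201 for i.p. ABCB5+ (edgeR, unadjusted p = 0.00811, adjusted p = 0.978) and 0.34 ± 0.201 for i.v. ABCB5+ (edgeR, unadjusted p = 0.0997, adjusted p = 0.673). Exact permutation tests over the 924 divisions of 12 animals gave two-sided p = 0.0325, 0.0303 and 0.119 for the 3 comparisons, with adjusted p = 0.251, 0.891 and 0.681 over all genes. By that exact test 16.9%, 2.35% and 3.39% of all genes had p below 0.05. Between the routes, i.p. minus i.v., the log2 difference was 0.24 ± 0.2 (edgeR, adjusted p = 0.9999, exact p = 0.383, with 1.78% of all genes below 0.05 by the exact test). Without animals 36 to 39 the log2 fold changes were 0.35 for CoCM (edgeR, unadjusted p = 0.0766), 0.44 for i.p. (0.0297) and 0.24 for i.v. (0.252). Each of the 3 was smaller than with all animals, and none passed after adjustment, the adjusted p for CoCM being 0.332.

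The distal convoluted tubule markers were set beside Tfap2b. Summed over 5 of the 6 listed genes (Slc12a3 and Calb1 lead them), they had medians of 880 TPM in untreated animals, 1170 TPM after CoCM, 1280 TPM after i.p. cells and 1040 TPM after i.v. cells. With all 24 animals this was the same order of groups as for the medians of Tfap2b. Without animals 36 to 39 the 4 tested marker genes had median log2 fold changes against Ctrl of -0.0064 for CoCM, 0.05 for i.p. and -0.0082 for i.v. The part of these markers in the differences of Tfap2b was not tested. Per 1000 TPM of these markers, Tfap2b stood at 24 ± 5.08 TPM without treatment, 31.6 ± 17.2 TPM after CoCM, 29.4 ± 11.5 TPM after i.p. cells and 27.9 ± 5.49 TPM after i.v. cells (SD, n = 6). The differences between these means were not tested. Across the 20 animals other than 36 to 39, Tfap2b and the summed markers had r = 0.365 and rho = 0.307 (permutation, adjusted p = 0.249 and 0.387).

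**Figure D3:**
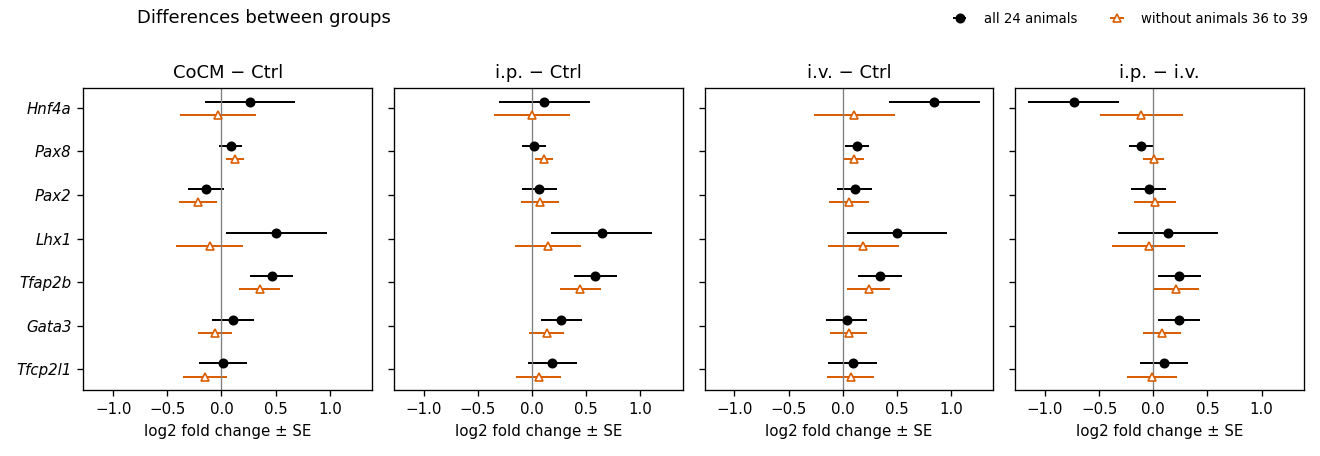
Log2 fold change (point) and its SE (bar) of each member in each of the 4 comparisons, from the fit to all 24 animals (filled circles) and to the 20 left without animals 36 to 39 (open triangles). Tfap2b lies to the right of 0 in the 3 comparisons with Ctrl under both fits, and the i.v. value of Hnf4a moves from 0.85 to 0.11.

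Hnf4a, the proximal tubule regulator (identifier 25735), differed more between animals than between groups. It ran from 139 to 669 CPM in Ctrl with a median of 307 CPM, from 217 to 793 CPM in CoCM with a median of 394 CPM and from 233 to 526 CPM in the i.p. group with a median of 392 CPM. In the i.v. group it ran from 318 to 1160 CPM with a median of 443 CPM. The 3 highest values of all 24 were those of i.v. animals 37 and 36 (1160 and 1120 CPM) and CoCM animal 39 (793 CPM), while i.p. animal 38, at 526 CPM, lay below Ctrl animal 24, at 669 CPM. The log2 fold change for i.v. against Ctrl was 0.85 ± 0.421 with all animals (edgeR, unadjusted p = 0.0563, adjusted p = 0.673) and 0.11 ± 0.371 without animals 36 to 39 (unadjusted p = 0.773). For CoCM it was 0.26 ± 0.418 with all animals and -0.03 ± 0.349 without them, and for i.p. 0.11 ± 0.418 and -0.0022 ± 0.349. The difference i.p. minus i.v. went from -0.73 ± 0.42 to -0.11 ± 0.386.

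The span of Hnf4a was wide in the untreated kidneys too. From the lowest to the highest Ctrl animal it rose from 47.1 to 212 TPM. Over the 20 animals the highest value was 4.8 times the lowest, and the SD of log2 CPM within groups was 0.63, above that of 93.1% of genes. This spread followed the proximal tubule markers closely, with r = 0.972 and rho = 0.979 across the 20 animals (permutation, p = 1e-05 for both, the smallest that the resamples can give, adjusted p = 8.25e-05 and 0.00011). Leaving out the 2 animals farthest from the median gave r = 0.974. Relative to these markers Hnf4a was far steadier. Per 1000 TPM of proximal tubule markers it stood at 19 ± 3.35 TPM without treatment, 17.4 ± 2.11 TPM after CoCM, 17.4 ± 4.54 TPM after i.p. cells and 17.8 ± 4.29 TPM after i.v. cells, and the within-group SD on the log2 scale fell from 0.68 for the TPM level to 0.3 for the ratio. In animals 36 to 39 the ratio was 10.9 to 14.8 TPM per 1000, against 14.7 to 25.1 TPM in the other 20, so the markers of these 4 exceeded those of the others by more than Hnf4a did.

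Genes known to depend on Hnf4a had their largest median in the same comparison. This list held 8 genes, of which Slc22a6, Slc22a8, Pck1 and Cubn are also proximal tubule markers, so it is not independent of them. None of the 8 passed the adjusted threshold in any comparison. For i.v. against Ctrl the median log2 fold change was 0.65, beside 0.01 over all genes, with 7 of 8 positive, and without animals 36 to 39 it was 0.08. For CoCM it was 0.07 and -0.21 in the same order, and for i.p. 0.08 and -0.18.

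**Figure D4:**
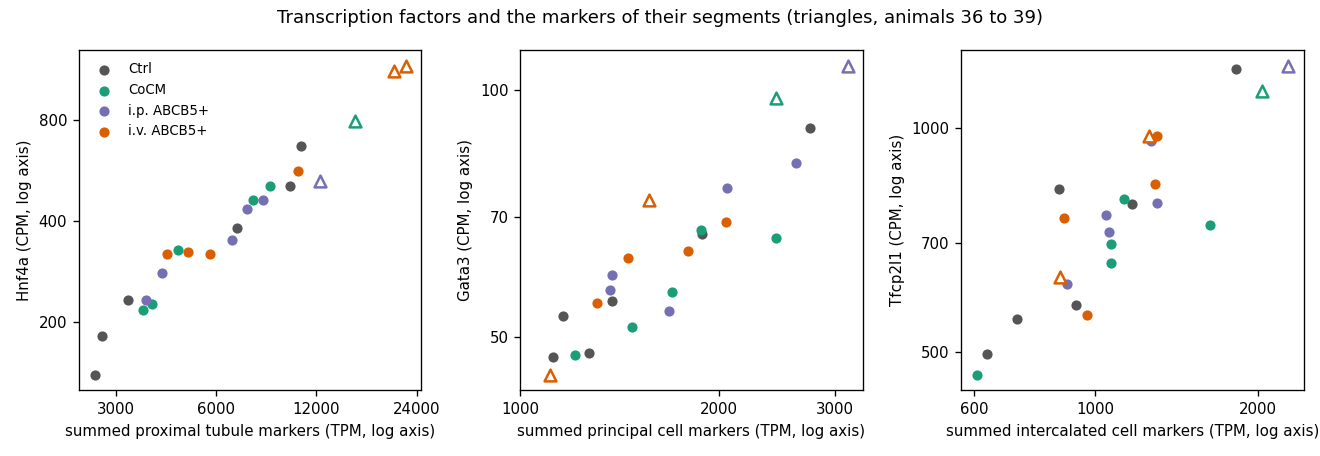
Hnf4a against summed proximal tubule markers, Gata3 against summed principal cell markers and Tfcp2l1 against summed intercalated cell markers, with 1 point per animal, members in CPM and markers in TPM on log axes. Each member climbs with its markers, and animals 36 to 39 (triangles) reach the top of the Hnf4a panel but are spread along the other panels.

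Pax8 (identifier 81819) was the steadiest member. It ran from 201 to 238 CPM in Ctrl with a median of 214 CPM, from 189 to 260 CPM in CoCM with a median of 232 CPM and from 150 to 262 CPM in the i.p. group with a median of 227 CPM. In the i.v. group it ran from 190 to 267 CPM with a median of 239 CPM. The lowest values of all were those of i.p. animal 38 (150 CPM) and CoCM animal 39 (189 CPM), which had the highest Hnf4a, Lhx1, Gata3, Tfap2b and Tfcp2l1 of their groups. Over the 20 animals the highest Pax8 value was 1.38 times the lowest, and its within-group SD of log2 CPM was 0.13, above that of 18.6% of genes and below the median of 0.23. With all 24 animals the log2 fold changes against Ctrl were 0.08 ± 0.11 for CoCM, 0.02 ± 0.11 for i.p. and 0.13 ± 0.11 for i.v. (edgeR, adjusted p = 0.72, 0.991 and 0.692). Without animals 36 to 39 they were 0.12, 0.11 and 0.10.

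Pax2 (identifier 293992), the other paired-box factor, varied more than Pax8, with a within-group SD of log2 CPM of 0.29 over 24 animals and 0.31 without animals 36 to 39, against 0.19 and 0.13 for Pax8. It ran from 19.5 to 38.6 CPM in Ctrl with a median of 27.6 CPM, from 19.1 to 31.4 CPM in CoCM with a median of 26.8 CPM and from 21.5 to 37.6 CPM in the i.p. group with a median of 29.3 CPM. In the i.v. group it ran from 21.4 to 37.4 CPM with a median of 31.2 CPM. It was the one member in which animals 36 to 39, at 29.4 to 34.9 CPM, all stayed inside the range of the other 20. Its log2 fold changes against Ctrl were -0.14 ± 0.163 for CoCM, 0.07 ± 0.163 for i.p. and 0.11 ± 0.162 for i.v. (edgeR, adjusted p = 0.678, 0.978 and 0.804), and -0.22, 0.07 and 0.06 without animals 36 to 39. Neither Pax2 nor Pax8 followed the summed injured tubule markers past the threshold (r = 0.0491 and 0.419 across 20 animals, permutation, adjusted p = 0.865 and 0.176), and neither followed the principal cell markers (r = 0.173 and 0.0612, adjusted p = 0.767 and 0.859). The injured tubule sum was mostly Spp1, at 7440 TPM on average, beside 833 TPM for Cd24 and less for the rest. It therefore says little of the other injury markers.

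Lhx1 (identifier 257634), the patterning factor, had single high animals in every group. It ran from 12.5 to 39.9 CPM in Ctrl with a median of 16.4 CPM, from 8.13 to 76.7 CPM in CoCM with a median of 20.9 CPM and from 15.5 to 76.6 CPM in the i.p. group with a median of 24.1 CPM. In the i.v. group it ran from 15.8 to 52.5 CPM with a median of 24 CPM. The highest animals were 23 (Ctrl), 39 (CoCM), 38 (i.p.) and 36 (i.v.), and the next value in each group was 20.3, 28.1, 26.4 and 29.2 CPM. Thus a high Lhx1 level also occurred in an untreated animal that did not stand apart, and animal 37, which did, was at 25 CPM. The log2 fold changes against Ctrl were 0.51 ± 0.464 for CoCM, 0.64 ± 0.465 for i.p. and 0.50 ± 0.464 for i.v. (edgeR, adjusted p = 0.61, 0.978 and 0.71). They were -0.11 ± 0.308, 0.15 ± 0.306 and 0.19 ± 0.325 without animals 36 to 39. Even then the within-group SD of log2 CPM was 0.54, above that of 88.4% of genes.

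Gata3 (identifier 85471), the collecting duct factor, had overlapping groups, and none of its differences passed the test. It ran from 47.3 to 89.8 CPM in Ctrl with a median of 54.2 CPM, from 47.6 to 97.9 CPM in CoCM with a median of 61.4 CPM and from 53.8 to 107 CPM in the i.p. group with a median of 67.8 CPM. In the i.v. group it ran from 45 to 73.4 CPM with a median of 63.1 CPM. The extremes of all 24 were both animals that stood apart, i.p. animal 38 at 107 CPM and i.v. animal 37 at 45 CPM. The log2 fold changes against Ctrl were 0.10 ± 0.193 for CoCM, 0.27 ± 0.193 for i.p. and 0.03 ± 0.193 for i.v. (edgeR, adjusted p = 0.807, 0.978 and 0.951), and -0.06, 0.13 and 0.06 without animals 36 to 39.

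Because Gata3 is known from several cell types, it was set beside the markers of each. Across the 20 animals it followed the principal cell markers, the 8 genes of the water- and sodium-transporting cells of the collecting duct that include Hsd11b2 and Aqp2, with r = 0.901 and rho = 0.893 (permutation, adjusted p = 8.25e-05 and 0.00011). Leaving out the 2 farthest animals gave r = 0.835. With T cell markers r was -0.115, with urothelial markers -0.155 and with mesangial markers 0.0999 (permutation, adjusted p = 0.85, 0.814 and 0.85). In animals 36 to 39 the T cell markers were at 22.3 to 39.9 TPM, below the 146 TPM of the lowest other animal, while Gata3 was at 73.4 to 107 CPM in animals 36, 38 and 39 and at 45 CPM, the lowest of all 24, in animal 37. Per 1000 TPM of principal cell markers, Gata3 stood at 45.4 ± 2.33 TPM without treatment, 38 ± 3.98 TPM after CoCM, 41.5 ± 9.4 TPM after i.p. cells and 44.4 ± 4.93 TPM after i.v. cells, with a within-group SD of 0.2 on the log2 scale against 0.38 for the TPM level itself.

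Tfcp2l1 (identifier 304741), the intercalated cell factor, had nearly the same mean in Ctrl (741 CPM) and CoCM (748 CPM). It ran from 497 to 1200 CPM in Ctrl with a median of 684 CPM, from 466 to 1120 CPM in CoCM with a median of 719 CPM and from 616 to 1210 CPM in the i.p. group with a median of 778 CPM. In the i.v. group it ran from 560 to 974 CPM with a median of 799 CPM. The single highest animals of Ctrl, CoCM and i.p., numbers 23, 39 and 38, were those with the highest Lhx1. In the i.v. group animal 36, the highest for Lhx1, was level with animal 42 for Tfcp2l1, at 974 CPM each. The log2 fold changes against Ctrl were 0.01 ± 0.223 for CoCM, 0.19 ± 0.223 for i.p. and 0.09 ± 0.223 for i.v. (edgeR, adjusted p = 0.981, 0.978 and 0.882), and -0.15, 0.06 and 0.07 without animals 36 to 39. Tfcp2l1 followed the intercalated cell markers (8 genes) with r = 0.829 and rho = 0.729 across 20 animals (permutation, adjusted p = 8.25e-05 and 0.00338) and the principal cell markers with r = 0.744 and rho = 0.705 (adjusted p = 0.00125 and 0.00475). Without the 2 farthest animals these r were 0.71 and 0.639. Per 1000 TPM of intercalated cell markers it stood at 114 ± 18.9 TPM without treatment, 88.5 ± 15.4 TPM after CoCM, 98.7 ± 21.2 TPM after i.p. cells and 105 ± 19.3 TPM after i.v. cells.

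Among the members themselves, Tfcp2l1 varied together with Lhx1, Gata3 and Pax2, while Tfap2b and Pax8 passed the test with no other member over the 20 animals. The family held 33 relations over the 20 animals, 21 of them pairs of members, and 9 passed after adjustment. The closest pair was Lhx1 and Tfcp2l1, with r = 0.929 and rho = 0.889 (permutation, adjusted p = 8.25e-05 and 0.00011), and r = 0.885 without the 2 farthest animals. Gata3 and Tfcp2l1 had r = 0.692 and rho = 0.623 (permutation, adjusted p = 0.00311 and 0.0173), and r = 0.595 without the 2 farthest. Pax2 and Tfcp2l1 had r = 0.654 and rho = 0.672 (permutation, adjusted p = 0.00685 and 0.00808), and r = 0.678 without them. Lhx1 and Gata3 had r = 0.691 and rho = 0.657 (permutation, adjusted p = 0.00311 and 0.0101). Without the 2 farthest their r was 0.518 and missed the threshold (permutation, adjusted p = 0.0848). Hnf4a and Gata3 ran in opposite directions, with r = -0.557 and rho = -0.614 (permutation, adjusted p = 0.0406 and 0.0178), and this too missed the threshold without the 2 farthest (r = -0.511, adjusted p = 0.0848). Lhx1 with Pax2 (r = 0.496) and with Tfap2b (r = 0.415) missed the threshold over 20 animals (permutation, adjusted p = 0.0758 and 0.176) and passed it without the 2 farthest (r = 0.574 and 0.636, adjusted p = 0.0482 and 0.0302). Within groups, with each group centred on its mean, r was 0.926 for Lhx1 and Tfcp2l1, 0.674 for Gata3 and Tfcp2l1, 0.628 for Pax2 and Tfcp2l1, 0.668 for Lhx1 and Gata3 and -0.624 for Hnf4a and Gata3. All of these values come from the same 20 libraries, and CPM within a library share a common total.

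**Figure D5:**
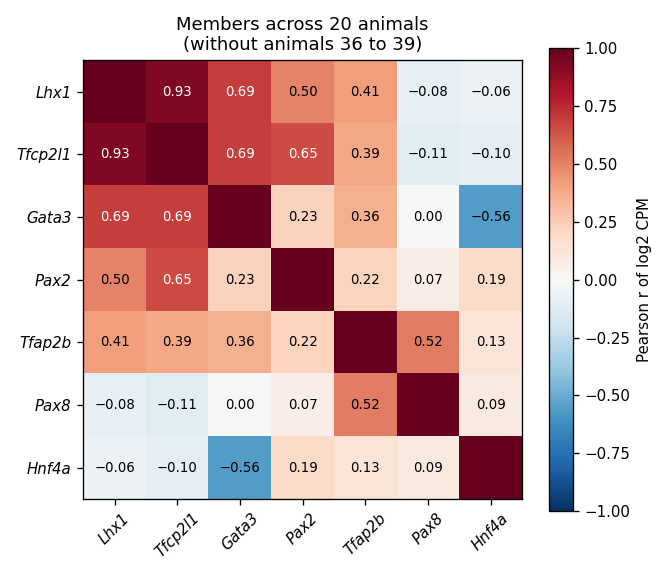
Pearson r of log2 CPM for each pair of members over the 20 animals other than 36 to 39, on a colour scale from -1 (blue) to 1 (red). Lhx1, Tfcp2l1, Gata3 and Pax2 form a block of positive values at one corner, with r from 0.231 to 0.929, while Hnf4a has its single strong value, -0.557, with Gata3.

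The genes most like each member, by r over the 20 animals among 11762 genes, are given as a description. For Hnf4a they were Spatc1 (r = 0.987), Glyat, an enzyme of glycine conjugation (0.97), and Dmgdh, an enzyme of choline breakdown (0.969). For Tfcp2l1 they were Adcy6, an adenylyl cyclase (0.965), Pde1c, a phosphodiesterase (0.952), and Wnk1, a kinase that controls distal salt transport (0.946). For Lhx1 they were Sall3, a zinc-finger factor (0.946), Tmem52b (0.941) and Wnk1 again (0.937). For Gata3 they were Pygb, a glycogen phosphorylase (0.905), B3galnt1 (0.901) and Scnn1g, a subunit of the epithelial sodium channel and one of the principal cell markers (0.875). For Pax2 they were Ehf, an epithelial ETS factor (0.922), Esrrg, an orphan nuclear receptor (0.89), and Ptprf, a receptor phosphatase (0.89). Over all 24 animals these 15 values ran from 0.766 (B3galnt1) to 0.991 (Spatc1). For Pax8 and Tfap2b, 1 of the 3 likenesses each was much lower over all 24 animals. For Pax8 they were Gfra4 (0.879), Lad1 (0.843) and Lrrc8e (0.798, but 0.446 over 24 animals), and for Tfap2b Kctd1 (0.92, but 0.502 over 24 animals), Dis3l (0.912) and Slc37a1 (0.909).

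Other transcription factors of the nephron were taken by segment from lists of known regulators, and none of them passed the adjusted threshold in any comparison. Of 7 other proximal tubule factors, 7 had a positive log2 fold change for i.v. against Ctrl with a median of 0.32, beside 0.01 over all genes, and 5 did without animals 36 to 39, with a median of 0.11. With all 24 animals Nr1h4, the bile acid receptor, had a log2 fold change of 0.50 for i.v. (edgeR, unadjusted p = 0.0189), and without animals 36 to 39 no factor of the list had an unadjusted p below 0.05 in any of the 3 comparisons with Ctrl. For CoCM the list had a median of 0.12 with all animals and -0.0077 without the 4, and Maf was at -0.41 with all animals (unadjusted p = 0.0328). For i.p. its median was -0.0005 with all animals and 0.03 without the 4. Of 9 factors of the loop of Henle and distal tubule, 9 were positive for i.v., with a median of 0.58 with all animals and 0.15 without animals 36 to 39. With all 24 animals Irx3, an Iroquois homeodomain factor, had a log2 fold change of 0.74 for i.v. (edgeR, unadjusted p = 0.0227). Without the 4 no factor of this list had an unadjusted p below 0.05 for CoCM or i.v. For i.p. 1 factor was higher at that threshold, beside 179 of all 12884 genes of that fit in either direction (edgeR). For CoCM and i.p. the medians were 0.21 and 0.28 with all animals, and 0.15 and 0.20 without the 4. Emx2, the relative of Emx1 on this list, stood at 39.7 TPM on average, and its log2 fold changes lay between 0.03 and 0.07.

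Of 11 collecting duct factors 9 were tested. The median log2 fold change was 0.29 for CoCM and 0.31 for i.p., with all 9 positive in each, and 0.14 for i.v. with 7 positive. Without animals 36 to 39 these medians were 0.13, 0.22 and 0.09. Hoxb7, a homeobox gene of the ureteric lineage, had 0.35 for CoCM (unadjusted p = 0.0317) and 0.37 for i.p. (unadjusted p = 0.0258), and Dmrt2, a factor of intercalated cells, had 0.41 for CoCM (unadjusted p = 0.0449). Principal cell markers moved beside this list, with medians of 1320 TPM in untreated animals, 1790 TPM after CoCM, 1870 TPM after i.p. cells and 1510 TPM after i.v. cells. Intercalated cell markers had medians of 890, 1100, 1160 and 1110 TPM in the same order. Their part in the values of the factors was not tested.

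Podocyte factors (6 genes, Wt1 among them) lay on the other side of 0, with medians of -0.24 for CoCM, -0.22 for i.p. and -0.03 for i.v. against Ctrl, and none had an unadjusted p below 0.05 with all animals. Without animals 36 to 39 these medians were -0.30, -0.25 and -0.06. In that fit 1 factor was lower for i.p. at an unadjusted p below 0.05 (edgeR), beside 179 of all 12884 genes in either direction. Of 10 factors of nephron progenitors and injured tubules 7 were tested, with medians of -0.13, -0.11 and -0.09 with all animals. Leaving out animals 36 to 39 gave -0.07, -0.02 and 0.10, so that the sign turned for i.v., with 5 of 7 positive. With all animals Sox11 was at -0.99 for CoCM (edgeR, unadjusted p = 0.0426) from a low mean of 1.23 TPM. Sox9, the factor of repairing tubules, stood at 57.2 TPM on average with log2 fold changes of 0.29, 0.01 and 0.22 (unadjusted p = 0.159, 0.966 and 0.282). The progenitor factor Six2 did not pass the count filter, at 0.106 TPM on average. Beside these lists, the 7 members had median log2 fold changes of 0.10 for CoCM, 0.19 for i.p. and 0.13 for i.v., and of -0.06, 0.11 and 0.10 without animals 36 to 39.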

How the data were processed

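RNA sequencing of 24 rat kidneys was analysed from the tables that the authors deposited for each animal, 1 of estimated counts and 1 of TPM values. The submitters' processing notes list Trim Galore 0.6.4, kallisto 0.4.6 and the rn6 build. The study's methods name a human transcript package and DESeq2. The annotation used to sum transcripts to genes is not given in the sources used here. Identifiers were rat Entrez numbers, of which 17179 of 17334 matched a RefSeq symbol.

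Estimated counts were rounded, filtered with filterByExpr by group and scaled by TMM. All 24 animals were fitted with a mean per group in edgeR 4.0.16, and p-values of the quasi-likelihood test were adjusted by Benjamini-Hochberg over 12778 genes at a threshold of 0.05. CPM were computed from these counts. Log2 CPM used a prior count of 2. Exact permutation tests were computed for every gene, and correlations used 100000 permutations over the 20 animals other than 36 to 39. Groups came from the labels. As no label says more of the animals than their number, p-values measure the spread between these samples. Total counts of 9304630 to 14125457 make counting error small beside this spread, since the lowest count of a member in any animal was 108 (Lhx1). No pair of libraries of a group agreed within sampling noise, with at least 10.7 chi-square units per degree of freedom.

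Members and gene lists were chosen with earlier results of these data known. Named were all members, the 3 genes most like each (average log2 CPM above 1), up to 3 transcription factors of other lists per direction and comparison with the smallest unadjusted p below 0.05, and 2 abundant genes of a marker list. Scnn1g, Sox9, Emx2, Wt1 and Six2 were named for their roles after their values were seen. Alternatives were median-ratio size factors, no count filter, DESeq2 1.42.0, limma 3.58.1 on log2(TPM + 1), the 2 compared groups alone, the 20 animals without 36 to 39, and leaving out each animal in turn. The code was tested on simulated counts. Promoter windows came from a RefSeq table of GRCr8, in which 6 members were found. Emx1 was not analysed here, and some genes of the lists that the naming rule would name are not reported here.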

Additional observations from a re-analysis of the deposited data

Results flagged for a closer look

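Lhx1 had 1 animal far from the other 5 of its group in all 4 groups, judged by the gap to its neighbour relative to the whole range of the 6 animals. The values were 39.87 CPM in Ctrl animal 23, 76.7 CPM in CoCM animal 39, 76.55 CPM in i.p. animal 38 and 52.51 CPM in i.v. animal 36, where the next animals were at 20.3, 28.1, 26.4 and 29.2 CPM. Of 28 pairs of a member and a group 4 had such an animal, all of them Lhx1, where chance gives about 1.4. That figure takes values as normally spread, whereas these CPM were not log-transformed, and some members varied together. Animals 36, 38 and 39 were also known beforehand to stand apart, so the excess over 1.4 was not tested. Animals 23, 39 and 38 also had the highest Tfcp2l1 of their groups, at 1200, 1120 and 1210 CPM. Animal 36, at 974 CPM, shared the top of the i.v. group with animal 42.

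Of 56 pairs of a marker list and a group 5 had such an animal, where chance gives about 2.8 under the same assumption. This excess was not tested either. The summed thick ascending limb markers were at 4554 TPM in Ctrl animal 24, next to 2200 TPM. The summed intercalated cell markers were at 2268 TPM in i.p. animal 38, next to 1300 TPM. The summed urothelial markers were at 147.9 TPM in Ctrl animal 22, at 50.89 TPM in i.p. animal 32 and at 12.75 TPM in i.v. animal 36, next to 37.2, 4.34 and 3.33 TPM. Gata3, which urothelium also expresses, was at 47.3 CPM in animal 22 and 57 CPM in animal 32, below the medians of their groups (54.2 and 67.8 CPM), and at 73.4 CPM in animal 36, the highest of its group (median 63.1 CPM).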

How the results depend on the processing

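No member passed the adjusted threshold under any alternative. Under the alternatives other than leaving out 1 animal, 14 of 168 log2 fold changes of members changed sign and 154 did not. Without animals 36 to 39, log2 fold changes against Ctrl became -0.034 (Hnf4a), -0.11 (Lhx1), -0.061 (Gata3) and -0.15 (Tfcp2l1) for CoCM and -0.0022 (Hnf4a) for i.p., and i.p. minus i.v. became 0.015 (Pax2), 0.0019 (Pax8), -0.045 (Lhx1) and -0.012 (Tfcp2l1). With limma on log2(TPM + 1) they became -0.028 (Pax8), -0.0077 (Gata3) and -0.075 (Tfcp2l1) for CoCM, -0.065 (Pax8) for i.p. and -0.028 (Gata3) for i.v. The cause was not tested. Leaving out each animal in turn turned 35 of 672 log2 fold changes and left the sign of 637. For CoCM the ranges were -0.023 to 0.52 (Hnf4a), -0.094 to 0.80 (Lhx1) and -0.049 to 0.24 (Gata3), each lowest without CoCM 39, and -0.14 to 0.18 (Tfcp2l1). For i.p. they were -0.052 to 0.38 (Hnf4a), -0.022 to 0.16 (Pax2) and -0.049 to 0.10 (Pax8), and for i.v. -0.042 to 0.17 (Gata3) and -0.00060 to 0.27 (Tfcp2l1). For i.p. minus i.v. they were -0.12 to 0.040 (Pax2), -0.35 to 0.41 (Lhx1) and -0.024 to 0.17 (Tfcp2l1), the latter pair lowest without i.p. 38. Tfap2b kept its sign throughout, with 0.37 to 0.56 for CoCM, 0.45 to 0.68 for i.p. and 0.23 to 0.44 for i.v.

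Over all genes, CoCM against Ctrl gave 1 call with edgeR and 78 with DESeq2, and with edgeR 31 without Ctrl animal 23, 2 without i.v. animal 37 and 0 without CoCM animal 26, 27 or 39 or Ctrl animal 12, 18, 22 or 24. The test for any difference among the groups was not run with DESeq2, limma or the compared groups alone. No paired analysis was possible because the groups share no animal numbers. The lowest count of a member was 108, so the spread between animals limits these comparisons more than counting error does.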
